A study of Mus musculus with 9 samples.

Results

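The 9 genes described here are ligands, receptors and matricellular genes in and around transforming growth factor β (TGF-β) signalling. These are the ligands Tgfb1, Tgfb2 and Tgfb3, the receptors Tgfbr1 and Tgfbr2, and the matricellular genes Ccn1, Ccn2, Thbs1 and Thbs2. They are named by their role in the pathway, out of 20972 gene symbols on the array, by a rule that uses no measured value, although it was written with earlier results of these data known. Liver RNA came from 9 male mice, all 20 weeks old, in 3 groups of 3, and each mouse had its own 1-colour Agilent array. STAM mice are a model of steatohepatitis that proceeds to liver cancer. They receive streptozotocin, which destroys pancreatic β cells, as newborns and a high-fat diet later. STAM-NON mice had no further treatment and STAM-INS mice were injected with insulin glargine. Normal mice were controls outside the model, so a comparison of STAM-NON with Normal covers the toxin and the diet together, and whether they were injected with vehicle is not given in the sources used here. The labels give the whole liver as the tissue and do not say whether a piece held tumour. The comparison of STAM-INS with STAM-NON asks what insulin did within the model.

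TGF-β is secreted in a latent complex and must be released before it can act. The active ligand binds the type II receptor, which recruits and phosphorylates the type I receptor, and the type I receptor phosphorylates Smad2 and Smad3. In the liver this pathway is known for turning stellate cells into collagen-producing myofibroblasts. Matricellular proteins are secreted into the matrix and act on cells rather than as a scaffold. Ccn2, also called connective tissue growth factor, is a well known TGF-β target. Ccn1 is an immediate-early gene and a target of the Hippo pathway effectors Yap and Taz. Thrombospondin 1 can release TGF-β from its latent complex, and platelets store it in large amounts.

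The genes also differ in the sequence in front of their start sites. RefSeq promoters of the assembly GRCm38.p6 were held for 6 of the 9 genes, and the 250 bases before the start are shown for 1 ligand, 1 CCN gene and 1 thrombospondin, 5′ to 3′ on the strand of the gene. These were chosen because Tgfb1 and Thbs2 passed the test against Normal and Ccn1 did not, and because they hold different motifs. Capitals mark the GC box GGGCGG in Tgfb1, the GC box and the TEAD motif GGAATG (the site bound by the partners of Yap) in Ccn1, and the Smad element CAGAC in Thbs2. Motifs were searched on both strands, so that a match on the other strand stands in the printed run as its reverse complement (for the Smad element, GTCTG), and no 2 matches shown here overlapped. The coordinates belong to GRCm38.p6 and not to mm9, on which the array was designed.
Tgfb1, chr7:25686752-25687001, plus strand: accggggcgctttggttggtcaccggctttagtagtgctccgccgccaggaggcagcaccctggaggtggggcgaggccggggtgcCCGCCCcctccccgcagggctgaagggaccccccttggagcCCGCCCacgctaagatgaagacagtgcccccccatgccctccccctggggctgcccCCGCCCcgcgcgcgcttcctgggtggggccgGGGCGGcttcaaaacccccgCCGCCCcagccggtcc
Ccn1, chr3:145649986-145650235, minus strand: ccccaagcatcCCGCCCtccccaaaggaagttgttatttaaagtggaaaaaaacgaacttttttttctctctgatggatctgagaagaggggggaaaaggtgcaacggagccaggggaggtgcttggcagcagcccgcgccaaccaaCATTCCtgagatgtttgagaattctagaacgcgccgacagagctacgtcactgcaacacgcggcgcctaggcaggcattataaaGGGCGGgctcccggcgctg
Thbs2, chr17:14694263-14694512, minus strand: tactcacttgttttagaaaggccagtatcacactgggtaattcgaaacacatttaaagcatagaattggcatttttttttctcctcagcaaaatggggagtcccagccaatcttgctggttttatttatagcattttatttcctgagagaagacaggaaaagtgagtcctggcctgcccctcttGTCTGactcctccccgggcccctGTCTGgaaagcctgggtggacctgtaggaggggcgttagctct

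The Tgfb1 window held 5 GC boxes, the Ccn1 window 2 GC boxes and 1 TEAD motif, and the Thbs2 window 2 Smad elements. Of the windows not printed, that of Tgfb2 held 2 Smad elements and that of Tgfbr2 held 1. Tgfbr1 had 2 windows, of which 1 held 2 GC boxes and the other 1 Smad element. Across 32851 promoters of the same length, 32.7% held the GC box, 42.2% the Smad element and 12.6% the TEAD motif. No window of the 6 genes held the AP-1 motif TGANTCA, found in 6.75% of all promoters, or the CArG box, found in 1.47%. These matches describe the letters only.

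The 9 genes were read by 12 probes, since Tgfb2, Tgfbr1 and Tgfbr2 had 2 each, and all 12 passed the filter on dim probes. Levels are given as centred log2 signal: the processed signal of a probe on the log2 scale, from which the 75th percentile over the spots of its array was taken away. A level of 0 thus equals the 75th percentile, and no probe is ranked against another by its level. Of the 12 probes, 8 were well above background on all 9 arrays. The other 4 probes (Thbs1, Thbs2, the dimmer Tgfb2 probe and the dimmer Tgfbr1 probe) passed only because all 3 STAM-NON arrays measured them. Those 4 entered the test only through STAM-NON, so counts over the 12 probes and the p-values of those 4 lean that way and are a description. For the dimmer Tgfbr1 probe the flag did not follow the level. STAM-NON replicate 1 was well above background at -3.78 and Normal replicate 1 was not at -3.55. The share of spots well above background was 47.8% to 63.1% on STAM-NON, 47.8% to 65% on STAM-INS and 46.2% to 51.1% on Normal arrays. All STAM arrays were on 1 slide and all Normal arrays on another, so slide and group cannot be told apart in comparisons with Normal, while STAM-INS and STAM-NON shared a slide.

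Between STAM-NON and Normal, Thbs1, Thbs2 and Tgfb1 were higher at an adjusted p below 0.05 (limma, Benjamini-Hochberg over 26278 probes), and no probe of the 9 genes was lower. That is 3 of 12 probes, against 16.1% of all tested probes called in either direction and 6.3% called higher. Thbs1 and Thbs2 were tested only through STAM-NON, so their p-values are a description. The split over all probes depended on the scaling, from 1655 higher and 2565 lower here to 2737 and 458 with arrays centred on spike-in controls. Among the 8 probes measured on every array, the count was 1 of 8, which was Tgfb1. The groups did not overlap for 6 of 12 probes, all higher in STAM-NON, where 41.2% of all probes did not overlap and 13.2% did so upward. The median difference of the 12 probes was 0.98 on the log2 scale and that of all probes was -0.13. Over the 8 probes the median was 0.57.

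**Figure D1:**
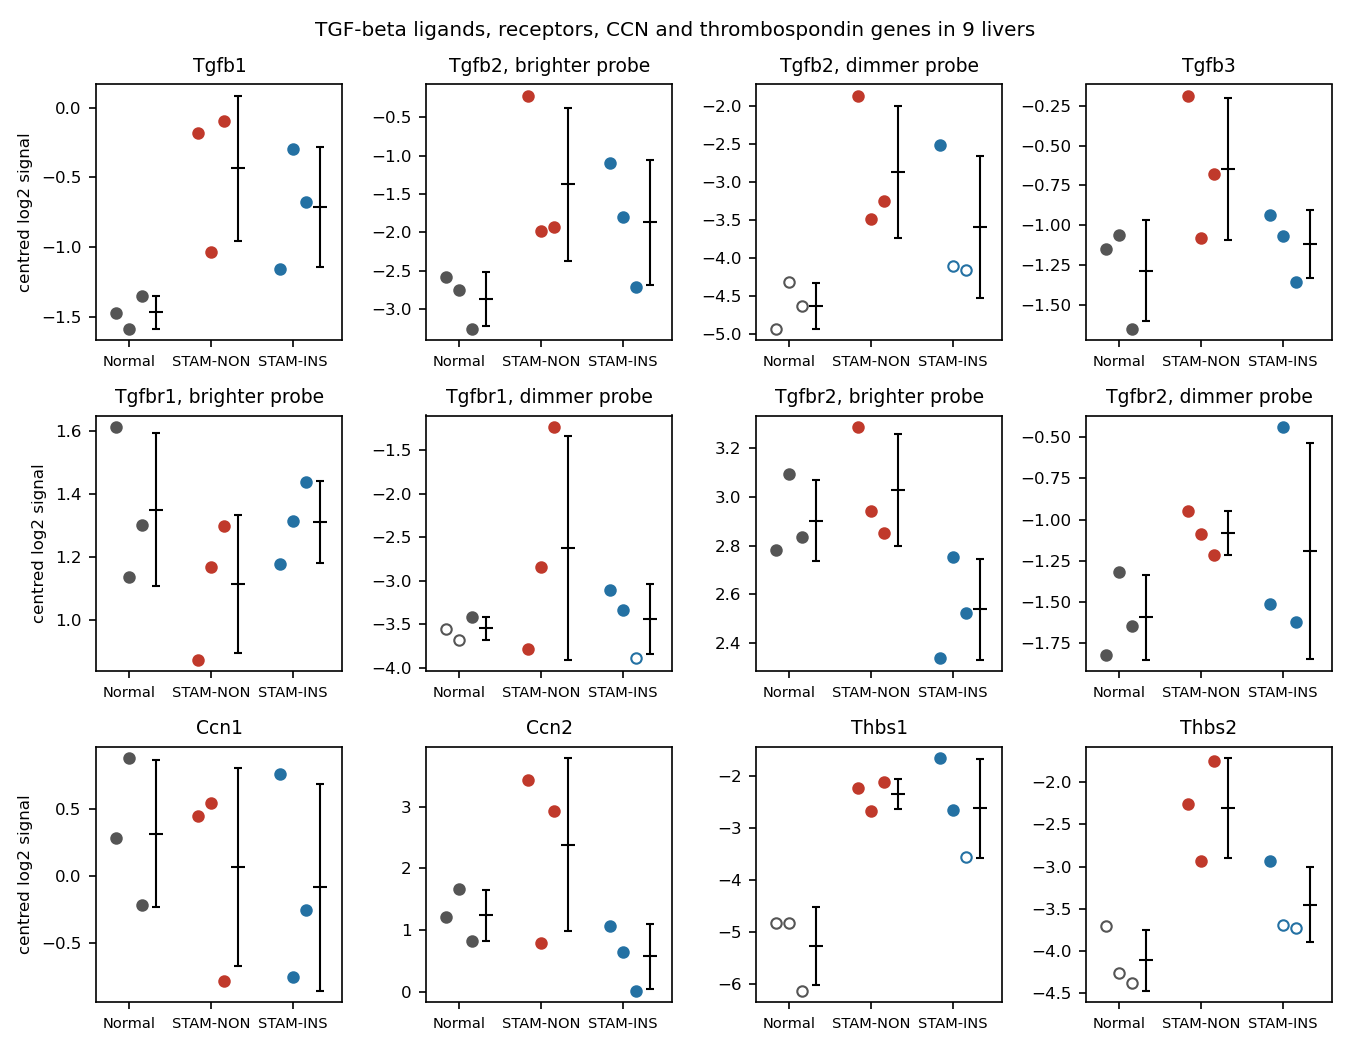
Centred log2 signal (vertical axis) of the 12 probes of the 9 genes on the 9 arrays, by group. Points are arrays, filled where the probe was well above background and open where it was not, and black bars give the mean ± SD of 3 mice. Thbs1 and Thbs2 are open on every Normal array, and Ccn2 reaches 3.43 and 2.93 on 2 STAM-NON arrays while the third lies at 0.79.

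The ligand Tgfb1, the isoform most often tied to liver fibrosis, read -1.47, -1.59 and -1.35 in the Normal livers. It read -0.18, -1.03 and -0.09 in STAM-NON and -1.16, -0.30 and -0.68 in STAM-INS. All 6 STAM values lay above all 3 Normal values, and the STAM groups overlapped. The level rose from -1.47 ± 0.12 (SD, n = 3) in Normal to -0.44 ± 0.52 in STAM-NON, a difference of 1.03 (SE 0.29) or 2.04-fold, with an adjusted p of 0.0451 in limma. This call sits at the threshold: it was kept in 7 of 23 alternative analyses, with an adjusted p between 0.0163 and 0.327 over all of them. It was lost when any 1 array other than STAM-NON replicate 2 or STAM-INS replicate 1 was left out, with an adjusted p of 0.0512 to 0.123. STAM-INS exceeded Normal by 0.76 (adjusted p 0.109) and fell short of STAM-NON by 0.27 (95% interval of STAM-INS minus STAM-NON -0.93 to 0.38, adjusted p 0.823). The 10 spots of the Tgfb1 probe on an array had an SD of 0.057 to 0.117, below the spread between STAM mice.

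The 5 tested macrophage markers had higher means in both STAM groups than in Normal, as Tgfb1 did. In STAM-INS against STAM-NON, 4 of them were lower and 1 was higher. The summed signal of 5 tested macrophage markers (Adgre1, Csf1r, Clec4f, Cd5l and Marco), as a multiple of the 75th percentile, was 304, 178 and 302 in STAM-NON, 144, 346 and 223 in STAM-INS and 123, 83.6 and 127 in Normal. Within each STAM group the array with the lowest Tgfb1 level had the lowest macrophage sum, and in STAM-INS the array with the highest had the highest. Of the 5 markers, Cd5l and Clec4f passed the test in both comparisons with Normal. The genes with the profile most like that of Tgfb1 over the 9 arrays were Cyba (r = 0.993), Kctd12 (r = 0.991) and C1qc (r = 0.988), among 17360 probes compared. The part of macrophage RNA in the Tgfb1 difference was not tested. In these bulk samples fewer cells of a type and less RNA per cell cannot be told apart.

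Both probes of Tgfb2, an isoform best known from heart and eye development, gave the same order of group means. The brighter probe read -2.58, -2.76 and -3.26 in Normal, -0.22, -1.98 and -1.93 in STAM-NON, and -1.09, -1.80 and -2.72 in STAM-INS. STAM-NON did not overlap with Normal, and the difference of 1.49 (SE 0.54) had an adjusted p of 0.0893. The dimmer probe was well above background on 3 of 3 STAM-NON, 1 of 3 STAM-INS and 0 of 3 Normal arrays. With each Normal array counted at no less than its lowest detected signal, its excess in STAM-NON over Normal was 2.04-fold. Its adjusted p was 0.0549 (0.0367 without STAM-INS replicate 1). STAM-INS minus STAM-NON was -0.49 for the brighter probe (95% interval -1.73 to 0.74) and -0.72 for the dimmer probe (95% interval -1.93 to 0.49).

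Tgfb3, the isoform known from palate and lung development, moved less. Its values were -1.15, -1.06 and -1.65 in Normal, -0.19, -1.08 and -0.68 in STAM-NON and -0.93, -1.07 and -1.35 in STAM-INS, so that the groups overlapped. The difference of STAM-NON from Normal was 0.64 (SE 0.25, adjusted p 0.109), and that of STAM-INS from Normal was 0.17 (adjusted p 0.670). STAM-INS minus STAM-NON was -0.47 (95% interval -1.04 to 0.10, adjusted p 0.625). Over the 9 arrays Tgfb3 correlated with Tgfb2 at r = 0.881 and with Ccn2 at r = 0.847, the closest pairs among the 9 genes, and its nearest profile was that of Sdcbp2 (r = 0.971), followed by Fstl1 (r = 0.965) and Ezr (r = 0.964). For Tgfb2 the nearest were Msantd3 (r = 0.988), Tmem209 (r = 0.982) and Tubb2b (r = 0.973). The points behind each r are the same 9 arrays, which share groups and slides.

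No receptor probe passed the test in any comparison. Tgfbr2, the ligand-binding receptor, was brightly measured by 1 probe, at 2.78, 3.09 and 2.84 in Normal, 3.28, 2.94 and 2.85 in STAM-NON and 2.34, 2.75 and 2.52 in STAM-INS. The 3 STAM-INS values lay below all 6 others. The difference of STAM-INS from STAM-NON was -0.49 (95% interval -0.86 to -0.11), with an unadjusted p of 0.0175 and an adjusted p of 0.494, and that from Normal was -0.36 (adjusted p 0.167). The dimmer Tgfbr2 probe read -1.82, -1.31 and -1.65 in Normal, -0.95, -1.09 and -1.21 in STAM-NON and -1.51, -0.44 and -1.62 in STAM-INS. Here STAM-NON lay above Normal without overlap (difference 0.51, adjusted p 0.247), and STAM-INS spanned both groups.

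The 2 probes of Tgfbr1, the signalling receptor also called Alk5, differed in sign. The brighter probe was 1.35 ± 0.24 in Normal, 1.11 ± 0.22 in STAM-NON and 1.31 ± 0.13 in STAM-INS, each a mean ± SD of 3 mice. Its difference of STAM-NON from Normal was -0.24 (adjusted p 0.328), which turned to 0.075 with spike-in centring. The dimmer probe differed by 0.93 (adjusted p 0.251), with STAM-NON values of -3.78, -2.85 and -1.24 and only 1 of 3 Normal arrays well above background. STAM-INS minus STAM-NON was 0.20 for the brighter probe (adjusted p 0.781) and -0.82 for the dimmer (adjusted p 0.710). The profiles most like the brighter probes were those of Nsd2 (r = 0.975), Apex1 (r = 0.964) and Camk2n1 (r = 0.961) for Tgfbr1, and Glrx (r = 0.98), Cd151 (r = 0.95) and Prnp (r = 0.925) for Tgfbr2.

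Ccn2 split the STAM-NON livers. It read 3.43 and 2.93 in replicates 1 and 3 and 0.79 in replicate 2. The Normal livers read 1.22, 1.67 and 0.83, and the STAM-INS livers 1.06, 0.65 and 0.02. Thus 2 of 3 untreated STAM livers lay above all others, and the third lay within the range of STAM-INS and just below the lowest Normal value. The difference of STAM-NON from Normal was 1.15 (SE 0.62) with an adjusted p of 0.217. Without STAM-NON replicate 2 it was 1.94 with an adjusted p of 0.0174, so that 1 mouse decided this call. STAM-INS was lower than STAM-NON by a difference of -1.81 (SE 0.62, 95% interval -3.24 to -0.38), the largest insulin difference in size among the 12 probes, with an unadjusted p of 0.0189 and an adjusted p of 0.494. Over the alternatives this difference ranged from -2.60 to -0.46 and its adjusted p was 0.0885 at the lowest.

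Ccn1, the close relative of Ccn2, showed no such split. Its values were 0.29, 0.88 and -0.21 in Normal, 0.45, 0.54 and -0.78 in STAM-NON and 0.76, -0.75 and -0.25 in STAM-INS, and all 3 groups overlapped. The difference of STAM-NON from Normal was -0.25 (95% interval -1.36 to 0.86, adjusted p 0.739), and it turned to 0.065 when arrays were centred on spike-in controls. The difference of STAM-INS from STAM-NON was -0.15 (95% interval -1.26 to 0.96, adjusted p 0.950). Ccn1 and Ccn2 correlated at r = 0.0636 over the 9 arrays. The profile most like that of Ccn1 was that of Fosb (r = 0.969), an immediate-early gene, followed by Klhl17 (r = 0.941) and Recql4 (r = 0.939), and that most like Ccn2 was Palm (r = 0.942), followed by Chaf1b (r = 0.941) and Gabra3 (r = 0.933).

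Thbs1 separated both STAM groups from Normal. It read -4.82, -4.83 and -6.12 in Normal, none of them well above background, against -2.24, -2.67 and -2.13 in STAM-NON and -1.67, -2.66 and -3.56 in STAM-INS. All 6 STAM values exceeded all 3 Normal values, although STAM-INS replicate 3 was itself not well above background. With each Normal array counted at no less than its lowest detected signal, Thbs1 was 2.93-fold higher in STAM-NON (adjusted p 0.0135). In STAM-INS it was 2.41-fold higher (adjusted p 0.0156). There 2 of 3 STAM-INS arrays were well above background, and replicate 3 counted at its own value. The probe was tested only through STAM-NON, so these p-values are a description. STAM-INS minus STAM-NON was -0.28 (95% interval -1.43 to 0.87, adjusted p 0.902). The nearest profiles were those of Elapor1 (r = 0.985), Gas8 (r = 0.982) and S100a4 (r = 0.979).

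Thbs2, a thrombospondin made mainly by fibroblast-like cells, differed in its order of groups. Its values were -3.70, -4.26 and -4.37 in Normal, all not well above background, and -2.26, -2.93 and -1.75 in STAM-NON, all well above it. In STAM-INS they were -2.94, -3.69 and -3.72, of which only the highest was well above background. STAM-NON lay above Normal without overlap, its lowest value (-2.93) nearly met the highest of STAM-INS (-2.94), and STAM-INS and Normal overlapped. On the same floor for Normal arrays, Thbs2 was 3.01-fold higher in STAM-NON (adjusted p 0.0164). That p-value is a description, since the probe was tested only through STAM-NON. STAM-INS minus STAM-NON was fitted at -1.14 (SE 0.34), with an unadjusted p of 0.00922 and an adjusted p of 0.473. This value rests on 2 STAM-INS arrays not well above background and on a probe tested only through STAM-NON. The nearest profiles were those of Epn2 (r = 0.979), Gpx8 (r = 0.958) and Col5a1 (r = 0.95), and Thbs2 correlated with Thbs1 at r = 0.805.

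The calls of Thbs1 and Thbs2 against Normal had limits. With the row of the slide as a block, the adjusted p for STAM-NON against Normal was 0.377 for Thbs1, 0.414 for Thbs2 and 0.194 for Tgfb1. In this layout STAM-NON lay wholly in row 1 and Normal in row 2, and only STAM-INS spanned both. Leaving out the 3 arrays that had the most spots above background was an analysis chosen after seeing the data. These were STAM-NON replicates 1 and 3 and STAM-INS replicate 1. It left replicate 2 as the only STAM-NON mouse, in which Tgfb1 differed from the Normal mean by 0.43. No p-value is given for STAM-NON in that analysis. In the same analysis the adjusted p for STAM-INS against Normal was 0.0525 for Thbs1, and Tgfb1 differed by 0.98 (adjusted p 0.0275). The floored folds above hold for the background subtraction of the scanner software. Normexp with an offset of 50 shrinks differences of dim probes. It gave log2 differences from Normal of 0.54 for Thbs1 and 0.52 for Thbs2 in STAM-NON. In STAM-INS it gave 0.58 for Thbs1, and these were smaller than the floored folds. The Thbs2 call was also lost without Normal replicate 2 (adjusted p 0.0559) or Normal replicate 3 (adjusted p 0.0588), and the Thbs1 call in STAM-INS without STAM-INS replicate 2 (adjusted p 0.0606).

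Platelet and stellate cell markers were read beside these genes. The summed signal of 4 platelet markers (Pf4, Ppbp, Itga2b and Gp9) was 4.84, 1.43 and 7.93 in STAM-NON, 2.82, 4.88 and 1.87 in STAM-INS and 0.837, 0.996 and 0.711 in Normal. All STAM sums thus exceeded all Normal sums, and 1 of 4 markers, Pf4, passed the test (difference 2.26, adjusted p 0.0357). The summed signal of 8 stellate cell and myofibroblast markers was 15.3, 9.47 and 14.3 in STAM-NON, 11.3, 8.09 and 7.12 in STAM-INS and 6.68, 8.67 and 5.83 in Normal. Bright markers weigh most in such a linear sum. Of the 8, Acta2 and Col1a1 are also listed below as genes induced by TGF-β. None of the 8 passed the test, and in STAM-NON against Normal 5 were higher and 3 lower (Acta2, Reln and Ngfr). STAM-NON replicate 2, the lowest of its group in Ccn2 and Thbs2, was also the lowest in this sum and in the platelet and macrophage sums. STAM-NON replicate 2 was the lowest of its group for 7 of the 12 probes, and STAM-INS replicate 1 the highest of its group for 8 of 12. The part of these cells in the differences of Thbs1, Thbs2 and Ccn2 was not tested.

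**Figure D2:**
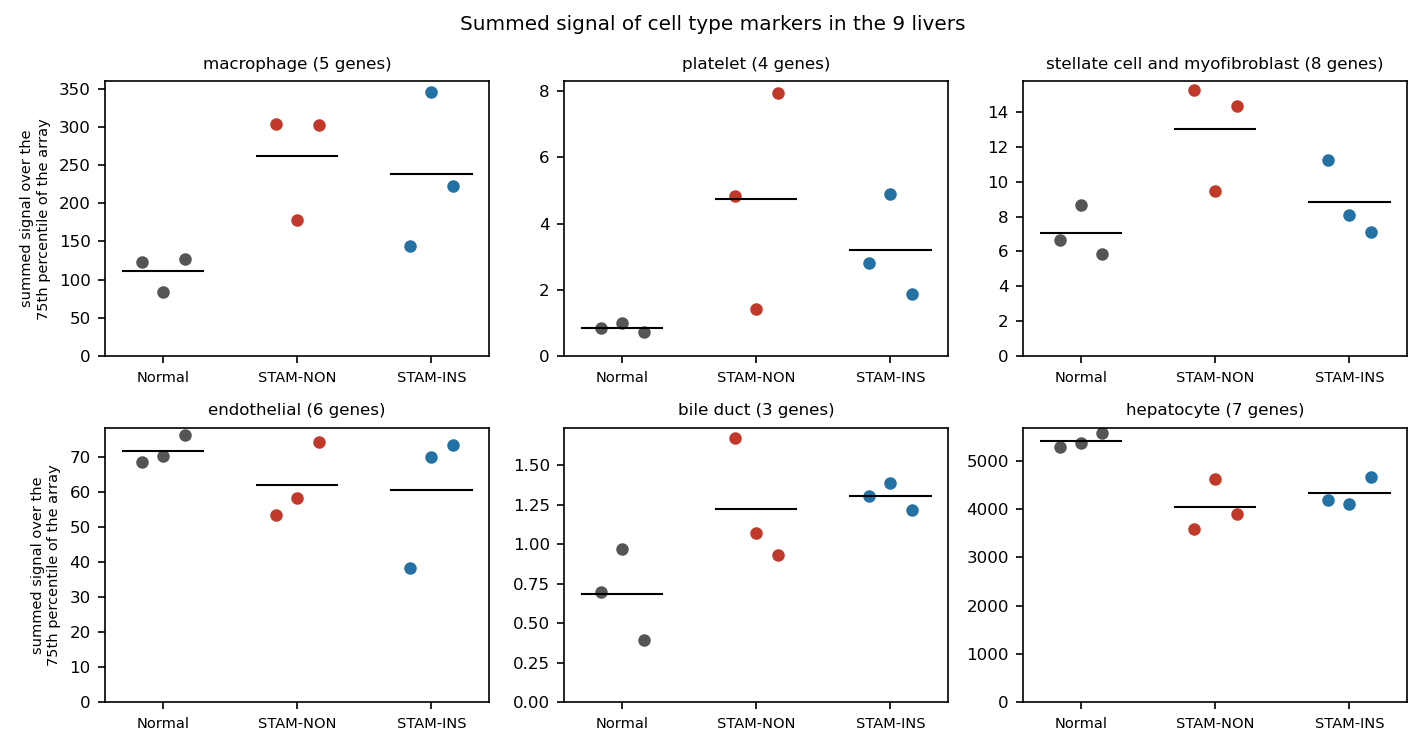
Summed signal of cell type markers as a multiple of the 75th percentile of the array (vertical axes, linear from 0), by group. Points are arrays and lines are group means. Macrophage and platelet sums are higher on all 6 STAM arrays than on the 3 Normal arrays, and stellate cell sums are higher on the 3 STAM-NON arrays than on the others in all cases but STAM-INS replicate 1, which at 11.3 lies above the lowest STAM-NON array at 9.47.

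The remaining markers gave the makeup of the tissue. Hepatocyte markers were bright on every array, with sums of 3578 to 4628 in STAM-NON, 4113 to 4671 in STAM-INS and 5274 to 5575 in Normal, and 0 of 7 passed the test in any comparison. Of 6 endothelial markers, 1 (Lyve1) was called higher in STAM-NON than in Normal. Of 3 bile duct markers, 2 (Krt7 and Sox9) were, beside 6.3% of all probes called higher. The endothelial list was mixed, with 4 markers higher in STAM-NON and 2 lower (Kdr and Clec4g, both without overlap). Endothelial sums were 53.2, 58.2 and 74.2 in STAM-NON and 68.5, 70.1 and 76.2 in Normal. None of 3 lymphocyte, 4 erythroid and 1 mesothelial markers passed, although erythroid sums ranged from 86.8 to 675 in STAM-NON and 110 to 886 in STAM-INS against 132 to 148 in Normal. No adipose marker of 4 was tested. Adipoq was well above background on 3 of the 9 arrays, Plin1 on 1, Lep on 0 and Retn on at most 3 for any probe.

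Insulin treatment left no probe of the 9 genes past the threshold against STAM-NON, where 0.0913% of all probes were called. At an unadjusted p below 0.05, 3 of 12 probes were lower (Thbs2, Ccn2 and the brighter Tgfbr2 probe), against 8.78% of all probes in either direction and 4.23% lower. The groups did not overlap for 2 of 12 probes, Thbs2 and the brighter Tgfbr2 probe, both lower with insulin, against 12.2% of all probes in either direction and 4.92% lower. Since 4 of the 12 probes were tested only through STAM-NON, these counts lean towards lower values in STAM-INS. Among the 8 probes measured on every array, 2 had an unadjusted p below 0.05 (Ccn2 and the brighter Tgfbr2 probe), 1 did not overlap and 7 differences were below 0, with a median of -0.37 against 0.03 over all probes. The methods' t-test also called none of the 12 at an unadjusted p below 0.05. A p that misses the threshold does not show that the groups were alike, and the intervals above give the sizes that the data allow.

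Between STAM-INS and Normal, 1 of 12 probes passed (Thbs1), against 13.9% of all probes in either direction and 5.16% higher. At an unadjusted p below 0.05 there were 2, Thbs1 and Tgfb1, against 32.5% of all probes. The groups did not overlap for 4 of 12, 3 of them higher in STAM-INS (Thbs1, Tgfb1 and the dimmer Tgfb2 probe) and 1 lower (the brighter Tgfbr2 probe), against 44% of all probes in either direction, 15.1% higher and 29% lower. Thbs1 and the dimmer Tgfb2 probe were among those tested only through STAM-NON. Among the 8 probes measured on every array, 0 passed, 2 did not overlap (Tgfb1 upward and Tgfbr2 downward) and the median difference was 0.06. The 3 comparisons share arrays, so their differences are set side by side without a test of likeness.

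**Figure D3:**
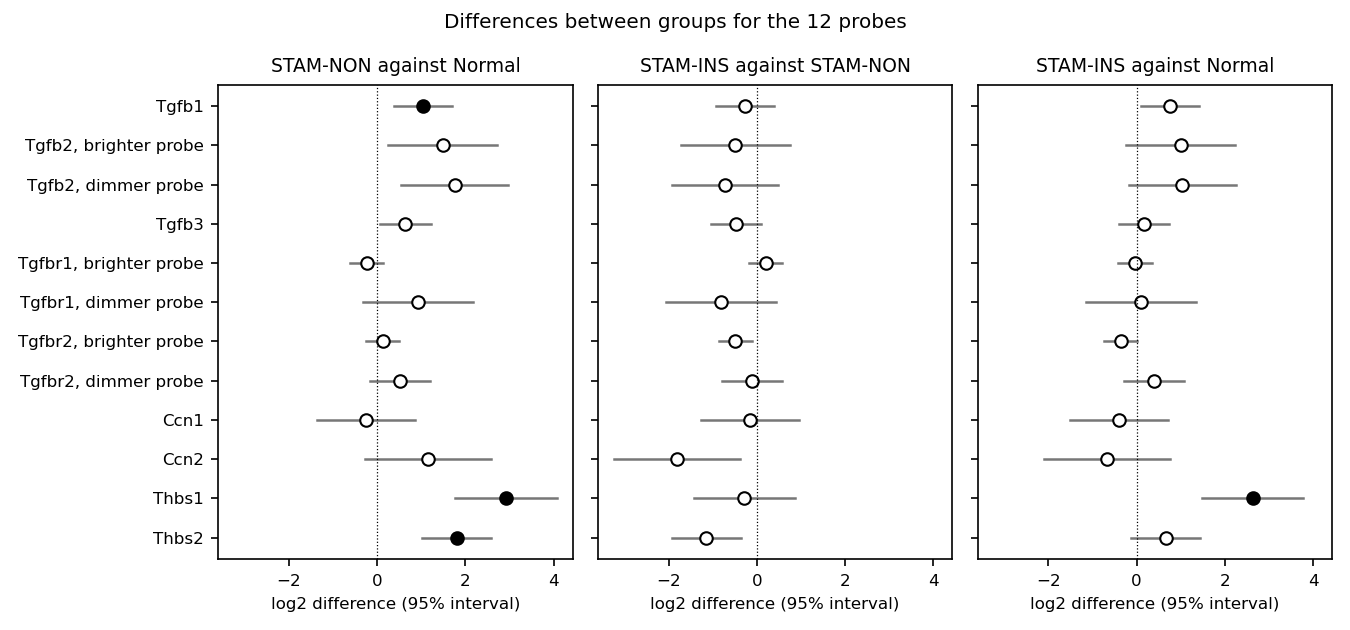
Difference in log2 signal (horizontal axis) of the 12 probes for each of the 3 comparisons, with 95% intervals from limma. Filled points passed an adjusted p of 0.05. Thbs1, Thbs2 and Tgfb1 are filled for STAM-NON against Normal, none for STAM-INS against STAM-NON, and Thbs1 alone for STAM-INS against Normal. Thbs1 and Thbs2 were tested only through STAM-NON.

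Around the 9 genes, 85 further genes of the pathway were listed, and 73 of them were tested. Some of these, among them Fos, Ccn5 and Ankrd1, passed the filter only through STAM-NON, so the counts lean that way. Between STAM-NON and Normal, 16 were higher and 0 lower, beside 6.3% of all probes higher. Between STAM-INS and Normal 9 were higher and 1 lower, beside 13.9% of all probes called. Between STAM-INS and STAM-NON none passed, with 9 at an unadjusted p below 0.05, beside 8.78% of all probes. The 16 calls became 0 with slide row as a block. With single arrays left out they became 1 to 29 (29 without STAM-NON replicate 2, 1 without Normal replicate 2). Of the genes induced by TGF-β, 4 of 11 were higher in STAM-NON than in Normal, with a median difference of 1.32, and none was lower. Timp1, the inhibitor of matrix metalloproteinases, was 7.65-fold higher on the same floor for Normal arrays (adjusted p 0.0163). Loxl2, which crosslinks collagen, rose from -0.88 to 1.13 in mean centred log2 signal (adjusted p 0.0299), and Cdkn2b, a cell cycle inhibitor, was higher by 1.58 on the log2 scale (adjusted p 0.0434, with 1 of 3 Normal arrays well above background). Tgfbi, a matrix protein named for its induction by TGF-β, was higher by 0.80 (adjusted p 0.0235).

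Other classical targets did not pass. Col1a1, the main fibrillar collagen, differed by 1.89 between STAM-NON and Normal without overlap (adjusted p 0.0767) and by -0.91 between STAM-INS and STAM-NON (adjusted p 0.725). Acta2, the smooth muscle actin of myofibroblasts, differed by -0.10 between STAM-NON and Normal (adjusted p 0.912), with an SD of 0.88 in STAM-NON and 0.80 in Normal.

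Among genes of TGF-β activation and latency, 2 of 11 were higher in STAM-NON than in Normal (16.1% of all probes called, 6.3% higher). These were Mmp14, a membrane metalloproteinase (difference 0.86, adjusted p 0.0172), and Nrros, which anchors latent TGF-β on myeloid cells (difference 1.03, adjusted p 0.0439). In STAM-INS, Mmp14 was higher than in Normal by 1.28 (adjusted p 0.00399), and Itgav, an integrin subunit that takes part in activation, by 0.61 (adjusted p 0.0499). Mmp14 read -1.12, -0.85 and -1.09 in Normal, -0.15, -0.47 and 0.14 in STAM-NON and 0.30, 0.33 and 0.16 in STAM-INS. The STAM-INS values thus lay above all others, with a difference from STAM-NON of 0.43 and an adjusted p of 0.534.

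Intracellular and co-receptor genes gave 1 call per list against Normal, beside 16.1% of all probes called in STAM-NON and 13.9% in STAM-INS. Of 10 Smads and regulators, Skil, a repressor of Smad activity, passed against Normal in STAM-NON (difference 0.93, adjusted p 0.0359) and in STAM-INS (0.99, adjusted p 0.0317). Smad2, Smad3 and Smad4 differed by -0.14, 0.14 and -0.33 between STAM-NON and Normal, and the inhibitory Smad7 by -0.08 (adjusted p 0.798). In this comparison 5 of the 10 were higher and 5 lower. Pmepa1 (0.90), Smad6 (0.51) and Smurf1 (-0.53) had adjusted p-values above the threshold. Of 6 co-receptors and decoys, 1 passed in both comparisons with Normal, Acvrl1, an endothelial type I receptor (0.57 in STAM-NON, adjusted p 0.0225, and 0.62 in STAM-INS, adjusted p 0.0163). Dcn, a proteoglycan that binds TGF-β, differed by -0.64 between STAM-INS and STAM-NON without overlap (unadjusted p 0.00808, adjusted p 0.465).

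Relatives and partners of the matricellular genes were also read. Against Normal, 16.1% of all probes were called in STAM-NON (6.3% higher) and 13.9% in STAM-INS. Of 3 other CCN and thrombospondin genes tested, none passed, and Thbs3 differed by 0.88 between STAM-NON and Normal (adjusted p 0.0553). Of 5 other matricellular genes, 2 were higher in STAM-NON, Spp1, which codes for osteopontin (means 0.46 in Normal and 1.97 in STAM-NON, adjusted p 0.0422), and Postn, which codes for periostin (difference 1.21, adjusted p 0.0456). Of 6 thrombospondin receptors, Cd36, also a fatty acid transporter, was higher in STAM-NON (1.38, adjusted p 0.0243) and the integrin subunit Itga3 in STAM-INS (0.67, adjusted p 0.0425), each against Normal. Cd47 differed by 0.02 between STAM-NON and Normal (adjusted p 0.895).

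Genes of the pathways that act on Ccn1 and Ccn2 were also read. Against Normal, 16.1% of all probes were called in STAM-NON (6.3% higher) and 13.9% in STAM-INS. Of 12 Hippo genes and Yap targets, the receptor kinase Axl (1.06, adjusted p 0.0391) and the transcription factor Tead1 (0.63, adjusted p 0.0281) were higher in STAM-NON than in Normal. Amotl2, which binds Yap, was lower in STAM-INS than in Normal by a difference of -0.75 (adjusted p 0.0307). Yap1 itself differed by -0.37 between STAM-NON and Normal, with an adjusted p of 0.0506. Of 9 immediate-early genes, 3 were higher in STAM-NON. Atf3 differed by 1.98 (adjusted p 0.0217) and Ier3 by 1.53 (adjusted p 0.0176). Fos was 3.35-fold higher on the same floor for Normal arrays (adjusted p 0.0319), and its probe was tested only through STAM-NON. Atf3 (1.64, adjusted p 0.0364) and Ier3 (1.53, adjusted p 0.0163) were also higher in STAM-INS than in Normal. Fosb, the gene nearest to Ccn1 in profile, differed by -0.04 between STAM-NON and Normal (adjusted p 0.950).

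**Figure D4:**
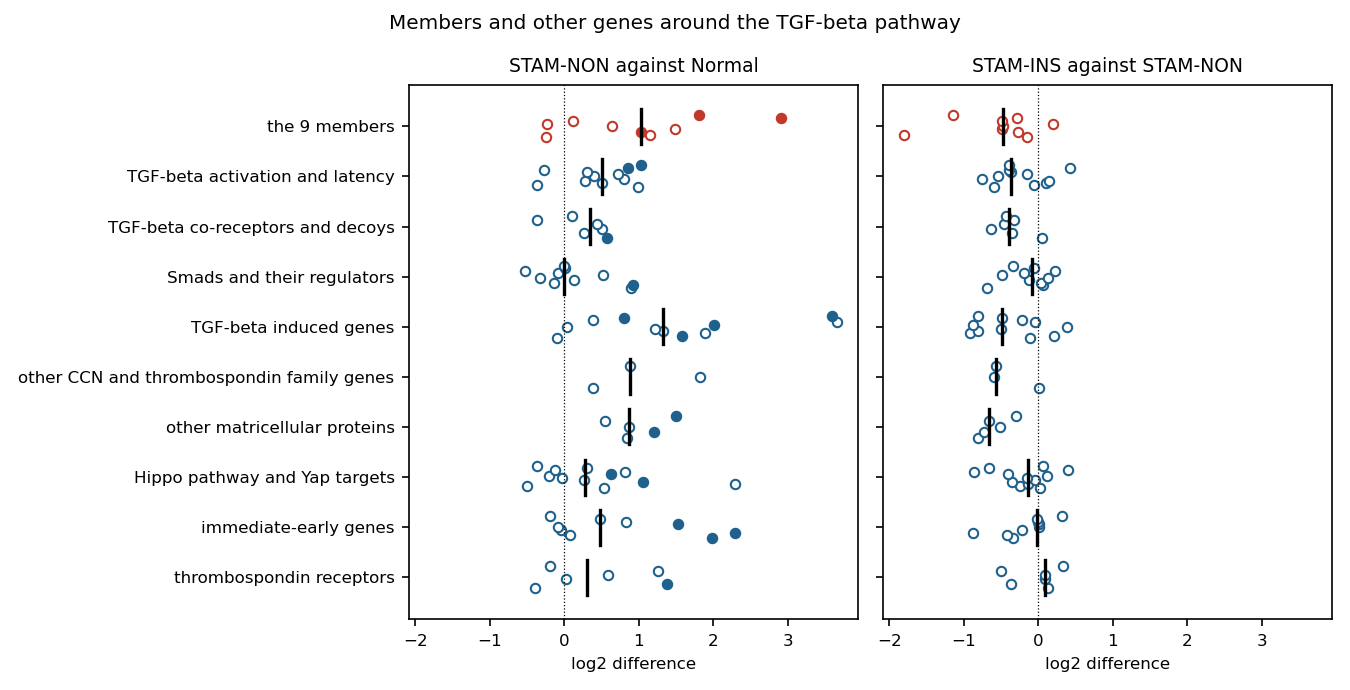
Difference in log2 signal (horizontal axes) between STAM-NON and Normal on the left and between STAM-INS and STAM-NON on the right, with the 9 genes in the top row (red) and the tested genes of the 9 pathway lists under it (blue), 1 point per gene. Filled points passed an adjusted p of 0.05 and vertical bars are list medians. On the left the 16 filled blue points all lie above 0, with 4 of them among the 11 tested genes induced by TGF-β, and on the right no point is filled.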

How the data were processed

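Liver RNA of 9 mice was measured on 1-colour Agilent arrays. The authors deposited scanner files written by Feature Extraction 11.5.1.1, with a background-subtracted intensity per spot (linear scale) that, per the file headers, was not normalised between arrays. The submitters' processing notes name the same tool. The study's methods name no normalisation or test for the arrays. Groups were taken from the sample labels. Probe accessions were matched to a RefSeq table of GRCm38.p6, which named 27656 of 55681 probes.

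From these intensities, the processed signal was put on the log2 scale and each array was centred on the 75th percentile of its 59305 non-control spots. No spot was saturated, flagged spots were left out, and spots of a probe were averaged. Probes entered the test (26278 of them) where a share of 0.5 or more of their spots was well above background on all 3 arrays of a group. The test was that of limma 3.58.1 (R 4.3.3), two-sided, on all 9 arrays with 1 shared estimate of the spread, and the script was tested on simulated data. Where no array of a group was well above background, a floored fold is given. In it each array of the dim group counts with its lowest detected signal or with the value of the probe, whichever is higher. It is not a strict lower bound, since probes not well above background can read above this floor. Arrays of the other group count at their own value. The number of arrays limits the precision, and p-values measure the spread between these mice.

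The 9 genes and all lists were chosen with earlier results of these data known. A gene with several probes is represented, in lists and correlations, by its tested probe with the highest mean. From the lists, genes past the threshold without overlap of the groups are named, up to 4 per list, comparison and direction, plus Col1a1, Acta2, Smad7, Spp1 and Yap1 whatever their value. The values of 1 further gene of the rule are not reported here. The 3 genes with the highest Pearson r over the 9 arrays are named for each of the 9 genes. Other list genes, marker genes and arrays that are named were chosen after their values were seen. Alternatives covered background correction, scaling, the filter, flagged spots, probes of a gene, the groups fitted, the variance model, slide row, replicate number, each array left out and the methods' t-test.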

Additional observations from a re-analysis of the deposited data

How the results depend on the processing

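Over 25 alternatives, the insulin comparison with STAM-NON gave 0 of 12 probes throughout. Against Normal, the 3 calls in STAM-NON and the 1 in STAM-INS became 0 and 0 without a filter on dim probes. They became 1 and 0 with only probes above background on all 9 arrays (8 of 12 probes). The methods' t-test gave 0 and 0 after Benjamini-Hochberg, and 5 and 2 unadjusted. In limma an unadjusted p below 0.05 called 32.5% of all probes for STAM-INS against Normal. The 3 calls in STAM-NON became 0 with slide row as a block. Without the 3 arrays with most spots above background, STAM-NON held replicate 2 alone, so no count is given. Leaving out each array gave 1 to 4 probes in STAM-NON and 0 to 1 in STAM-INS. Without Normal replicate 2 or Normal replicate 3 the STAM-NON count was 1. The cause of these changes was not tested. Some of these settings, though not all, hold fewer probes or samples. Over all probes the calls ranged from 15 to 7534 for STAM-NON against Normal, 1 to 1498 for STAM-INS against STAM-NON and 572 to 8811 for STAM-INS against Normal. These ranges run over all alternatives, so the counts above have no share of their own setting beside them. The replicate numbers are not stated to pair the mice. Correlations of same-numbered deviations ran from -0.288 to 0.149, which cannot tell whether mice were paired. With the replicate block the calls were 3, 0 and 1 of 12, with Tgfb1 lost (adjusted p 0.0838) and the brighter Tgfb2 probe gained (adjusted p 0.0424), and 2016, 6 and 1872 over all probes, against 4220, 24 and 3647.

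Of 852 recomputed values 37 changed sign, none of them a called difference. For STAM-NON against Normal, Ccn1 became 0.065 and the brighter Tgfbr1 probe 0.075 with spike-in centring, and the brighter Tgfbr2 probe -0.030 with median centring. Without the 3 arrays, with replicate 2 as the only STAM-NON mouse, Ccn2 became -0.44 and Ccn1 0.22. For STAM-INS against STAM-NON, Thbs1 became 0.035 with normexp. With slide row as a block Ccn1 became 0.69, Thbs1 0.68 and the Tgfb2 probes 0.35 (dimmer) and 0.28 (brighter). Without the 3 arrays Tgfb1 became 0.55 and the dimmer Tgfbr2 probe 0.061. For STAM-INS against Normal, the brighter Tgfbr1 probe became 0.043 with quantile normalisation, 0.12 with spike-in centring, 0.084 with the percentile over detected probes, and 0.027 with slide row as a block and without the 3 arrays. The dimmer became -0.023 with normexp, -0.050 with quantile, -0.065 with median centring, and -0.061 with slide row as a block and without the 3 arrays. Tgfb3 became -0.0034 with median centring.

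With each array left out in turn, STAM-INS against STAM-NON ranged from -0.58 to 0.18 for Ccn1, -0.88 to 0.082 for the brighter Tgfb2 probe, -0.48 to 0.11 for the dimmer Tgfbr2 probe and -0.76 to 0.19 for Thbs1. STAM-NON against Normal ranged from -0.51 to 0.18 for Ccn1 and -0.0065 to 0.22 for the brighter Tgfbr2 probe. STAM-INS against Normal ranged from -0.014 to 0.29 for Tgfb3, -0.15 to 0.092 for the brighter Tgfbr1 probe and -0.061 to 0.33 for the dimmer. Spike-in centring moved the median difference of all probes, STAM-NON against Normal, from -0.13 to 0.18 and the split of calls to 2737 higher and 458 lower, from 1655 and 2565. The split was 2077 and 1064 with the percentile over detected probes, 1313 and 3387 with normexp and 1487 and 1579 with quantile normalisation. Median centring moved the median to -0.29. Of the 73 pathway genes, the calls ranged from 0 to 29 for STAM-NON against Normal (16 as reported), 0 to 2 for STAM-INS against STAM-NON (0) and 1 to 21 for STAM-INS against Normal.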
